A study of Mus musculus with 8 samples.

Results

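The cell cycle and proliferation genes described here are 36 mouse genes that act in S phase or in mitosis. They were chosen by name, as the rows of a deposited count table of 51789 genes that belong to the listed symbols, and all 36 were found. Of these, 12 act in S phase, in replication licensing, DNA synthesis, nucleotide supply or entry into S phase, and 24 act in G2 phase and mitosis. The levels came from RNA of whole mammary glands of female C57BL/6 mice, collected 6 weeks after a single injection into the abdominal mammary gland. The injected material was small extracellular vesicles (sEVs), membrane particles shed by cells, taken from cultures of AT3, a mouse mammary adenocarcinoma line that metastasizes, kept under normoxia (sEVNORM, n = 3 glands) or under hypoxia (sEVHYP, n = 2 glands). Control glands received sEVCTRL, the vesicle preparation from culture medium that had held no cells (n = 3 glands). The age of these mice and their stage of the oestrous cycle are not given in the sources used here.

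A cell that divides passes through ordered phases. In late G1 the cyclins E activate CDK2, E2F transcription factors switch on the S phase genes, and the MCM helicase, loaded on DNA beforehand, starts to unwind replication origins. In G2, cyclins A and B with CDK1, and the factor FOXM1, switch on a second wave of genes whose products build the spindle, attach the chromosomes and cut the cell apart. Resting cells hold less of either set, so their summed RNA in a tissue is widely used as a sign of how many cells are dividing. The adult gland is a mixture of ducts, fat, vessels and leukocytes, and abdominal glands lie around a lymph node, so a whole gland measures dividing cells of every one of these types together.

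Libraries held 18194996 to 24622569 counts. Markers of luminal epithelium were present in all 8 libraries, with Krt8 at 48.3 to 109.4 CPM (counts divided by a TMM-scaled library size) and Krt18 at 88.1 to 172.0 CPM. Markers of skeletal muscle, a tissue that lies next to the gland, were uneven, with a sum over 8 genes of 7.403 CPM in sEVNORM replicate 2 and 10950 CPM in sEVHYP replicate 2. The sEVCTRL replicate 1 library stood apart from the other controls in the cell cycle genes, and the calls, the medians of the fold changes and the spread within the controls are given with and without it.

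Promoters of these genes carry short motifs that differ between the S phase and the mitosis genes, and 4 of them are shown as examples of each motif. The cell cycle genes homology region, TTTGAA, is the site through which the DREAM and MuvB complexes hold mitosis genes off in resting cells and on in G2. CCAAT is bound by NF-Y, and TTTNGCGC is a common form of the E2F site. Each sequence gives the 200 bases just before the RefSeq start of the gene (GRCm38.p6), 5′ to 3′ on the strand of the gene, and capitals mark the 3 motifs on either strand, so that ATTGG is CCAAT read on the opposite strand. Cdk1 is from the minus strand of chr10:69352913-69353112, Ccnb2 from the minus strand of chr9:70421555-70421754, Mki67 from the minus strand of chr7:135716380-135716579 and Mcm6 from the minus strand of chr1:128359706-128359905.
Cdk1: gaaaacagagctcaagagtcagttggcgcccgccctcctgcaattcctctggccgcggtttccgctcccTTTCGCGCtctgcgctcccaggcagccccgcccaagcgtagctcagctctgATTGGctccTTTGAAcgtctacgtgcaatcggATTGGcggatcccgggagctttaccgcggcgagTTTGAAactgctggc
Ccnb2: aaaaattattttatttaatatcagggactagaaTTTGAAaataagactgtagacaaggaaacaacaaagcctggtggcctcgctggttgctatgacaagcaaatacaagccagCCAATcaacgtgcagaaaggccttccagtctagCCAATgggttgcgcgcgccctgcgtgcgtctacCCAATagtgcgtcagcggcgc
Mki67: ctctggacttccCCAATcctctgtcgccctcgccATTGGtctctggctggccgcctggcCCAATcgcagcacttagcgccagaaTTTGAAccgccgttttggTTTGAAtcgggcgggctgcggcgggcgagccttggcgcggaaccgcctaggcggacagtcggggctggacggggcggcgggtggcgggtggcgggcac
Mcm6: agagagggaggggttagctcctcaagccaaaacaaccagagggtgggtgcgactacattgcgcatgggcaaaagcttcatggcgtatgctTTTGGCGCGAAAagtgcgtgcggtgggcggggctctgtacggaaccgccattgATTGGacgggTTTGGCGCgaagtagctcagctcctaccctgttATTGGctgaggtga

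The Cdk1 promoter held all 3 motifs, with TTTGAA starting at positions -71 and -15, where 0 is the first base of the transcript. Mki67 had 2 copies of TTTGAA, at -116 and -98, next to 3 CCAAT matches. Ccnb2 had 3 CCAAT matches spaced between -87 and -21, with 1 TTTGAA at -167 and another at 4, past the stretch shown. Mcm6 held no TTTGAA and 3 matches of TTTNGCGC, of which those at -110 and -106 lie on opposite strands and overlap. Both strands of the 300 bases from 250 before to 50 after each start were searched in the 29 members with a RefSeq window and in 27025 genes in all. Aurkb, Ccna2, Ccne2, Foxm1, Kif20a, Mcm4 and Tpx2 had no window. TTTGAA was found in 14 of 19 mitosis members (73.7%), namely Aurka, Bub1b, Ccnb2, Cdc20, Cdk1, Cenpa, Cenpf, Kif11, Kif23, Mki67, Plk1, Prc1, Top2a and Ube2c, and in 1 of 10 S phase members, Mcm2. Over all genes the share was 20.2%. CCAAT was found in 17 of 19 mitosis members and 7 of 10 S phase members, and in 41.1% of all genes. TTTNGCGC was found in Mcm3, Mcm5, Mcm6 and Mcm7, 4 of 10 S phase members, in 1 of 19 mitosis members, Cdk1, and in 1.57% of all genes. These matches describe the letters of the windows and were not tested against binding data.

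Levels differed widely between the genes. Per kilobase of exon, Pcna, the sliding clamp of the DNA polymerases, had the highest mean level over the 8 libraries, 111.5 CPM per kilobase, with a range of 78.3 to 153.2 that lay above every library's value of the other 35 genes. Mcm4 followed with 14.8 CPM per kilobase (range 11.2 to 19.2), and Mki67, which encodes the Ki-67 protein that coats mitotic chromosomes, with 14.4 (range 6.87 to 32.8). Mcm6 (12.7), Rrm2 (11.95), Ube2c (10.6) and Ccnb2 (10.3) came next, and these 6 genes overlapped in their ranges. The lowest were Cenpf (0.389), Tk1 (0.703) and Plk1 (0.720). All of the 36 genes had counts in all 8 libraries, from 11 counts of Plk1 in sEVCTRL replicate 3 to 7239 counts of Pcna in sEVCTRL replicate 1, and all passed the filter on low counts.

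The first finding concerns single glands. In sEVCTRL replicate 1, 32 of the 36 genes reached their highest level of the 8 libraries (88.9%, against 13.7% of the 17858 genes tested), and the other 4, Cenpf, Prc1, Tyms and Tk1, were highest in sEVHYP replicate 1. sEVCTRL replicate 1 was first or second for 36 of 36 genes, and sEVHYP replicate 1 for 32 of 36. The lowest level lay in sEVCTRL replicate 2 for 17 genes, in sEVCTRL replicate 3 for 14 and in sEVHYP replicate 2 for 5. The highest and the lowest gland of most genes therefore belonged to the same group, the controls.

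**Figure D1:**
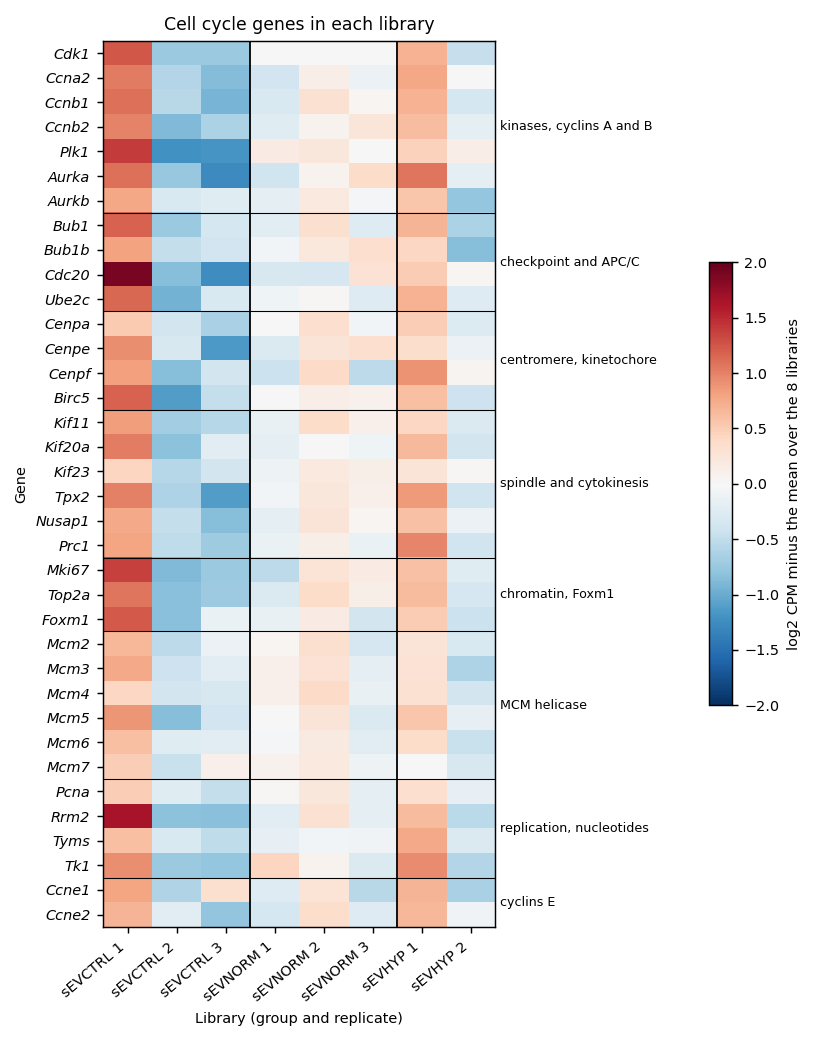
Each row is a gene and each column a library, and the colour is the log2 CPM minus the mean of that gene over the 8 libraries, with lines between the groups and between roles. sEVCTRL 1 is red from top to bottom, sEVHYP 1 is red for nearly all genes, and sEVCTRL 2 and sEVCTRL 3 are blue for nearly all, so that the controls hold both extremes.

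Summed over the 36 genes, the level was 1701 CPM in sEVCTRL replicate 1, 663.8 in replicate 2 and 656.2 in replicate 3. It was 864.3, 1098 and 892.8 CPM in the sEVNORM glands, and 1306 and 777.8 CPM in the sEVHYP glands. The 3 sEVNORM glands lay between the extremes of the controls, and so did both sEVHYP glands. Group means were 1007 ± 601 CPM for sEVCTRL (SD, n = 3), 951.7 ± 127.5 for sEVNORM (SD, n = 3) and 1042 ± 373.5 for sEVHYP (SD, n = 2). The means differed by 1.10-fold (sEVHYP over sEVNORM), 1.04-fold (sEVHYP over sEVCTRL) and 0.945-fold (sEVNORM over sEVCTRL), whereas the controls alone spanned 2.59-fold. Without sEVCTRL replicate 1 the other 2 controls differed by 1.01-fold, with a mean of 660.0 ± 5.37 CPM (SD, n = 2), below each of the 5 treated glands. The control left out was the extreme of this same sum. A smaller SD and a lower mean therefore follow from the choice, and they give no baseline for the treated glands. In a bulk sample, fewer dividing cells and less of these RNAs per cell cannot be told apart.

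The genes of mitosis had a wider span in the controls than those of S phase. The 24 mitosis genes summed to 924.8, 263.9 and 271.5 CPM in the controls, a 3.50-fold span, and the 12 S phase genes to 775.9, 399.9 and 384.7 CPM, a 2.02-fold span. Both spans rest on sEVCTRL replicate 1, and without it they were 1.03-fold and 1.04-fold. The sums also lean on single genes, as Mki67 gave 329.7 of the 924.8 CPM and Pcna 367.6 of the 775.9 CPM in that library. Gene by gene, the SD of log2 CPM within groups had a median of 0.722 for mitosis and 0.504 for S phase genes. Between the sEVHYP glands the mitosis sum differed by 1.82-fold and the S phase sum by 1.55-fold. The mitosis sum was 1.19 times the S phase sum in sEVCTRL replicate 1 and 0.660 and 0.706 times in the other controls. It was 0.709, 0.854 and 1.03 times in the sEVNORM glands and 1.02 and 0.873 times in the sEVHYP glands. By role, the spans within the controls were 4.55-fold for Mki67, Top2a and Foxm1 together, 3.98-fold for the checkpoint and anaphase genes, 3.56-fold for the kinases with cyclins A and B, 2.77-fold for the centromere and kinetochore genes, 2.74-fold for the spindle genes, 2.24-fold for the replication and nucleotide genes, 2.06-fold for the cyclins E and 1.95-fold for the MCM helicase genes. Without sEVCTRL replicate 1, the highest control in every role, these spans were 1.01-fold to 1.34-fold, and narrower spans follow from that choice. Within groups, the SD of log2 CPM had a median of 0.671 over the 36 genes, from 0.324 for Mcm7 to 1.09 for Cdc20, against 0.324 over all genes tested. Without sEVCTRL replicate 1 these medians were 0.412 and 0.313, and 0.417 for the mitosis and 0.369 for the S phase genes.

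The genes moved together from gland to gland. Over the 8 libraries the 630 pairs of members had a median Pearson r of 0.868 (range 0.331 to 0.994) and a median Spearman rho of 0.869, and r was above 0.7 in 90.8% of pairs. Members paired with other genes had a median r of 0.016, with 7.19% above 0.7. Without sEVCTRL replicate 1 the median r between members was 0.802 over 7 libraries. All pairs share the same libraries, so a gland that is high in all members raises every r at once, and the values are given as a description.

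Mki67, the gene of the protein that the study stained in tissue sections, held 6491, 1516 and 1399 counts in the 3 controls, 2210, 3461 and 3010 in the sEVNORM glands and 4151 and 2008 in the sEVHYP glands. As CPM these were 329.7, 69.1 and 76.6 in sEVCTRL, 88.9, 153.4 and 142.4 in sEVNORM, and 190.2 and 107.5 in sEVHYP. The gene lies at chr7:135689784-135716361 (GRCm38, minus strand). A single control gland was above every treated gland and the other 2 controls were below every treated gland, so the groups overlapped. Its log2 fold change was 0.22 (SE 0.62, 95% interval -1.20 to 1.63) for sEVHYP against sEVNORM, with an adjusted P = 0.9998 by edgeR's quasi-likelihood F-test. Against sEVCTRL it was -0.09 (SE 0.63, 95% interval -1.51 to 1.33, adjusted P = 0.9999) for sEVHYP and -0.31 (SE 0.56, 95% interval -1.57 to 0.96, adjusted P = 0.9998) for sEVNORM.

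**Figure D2:**
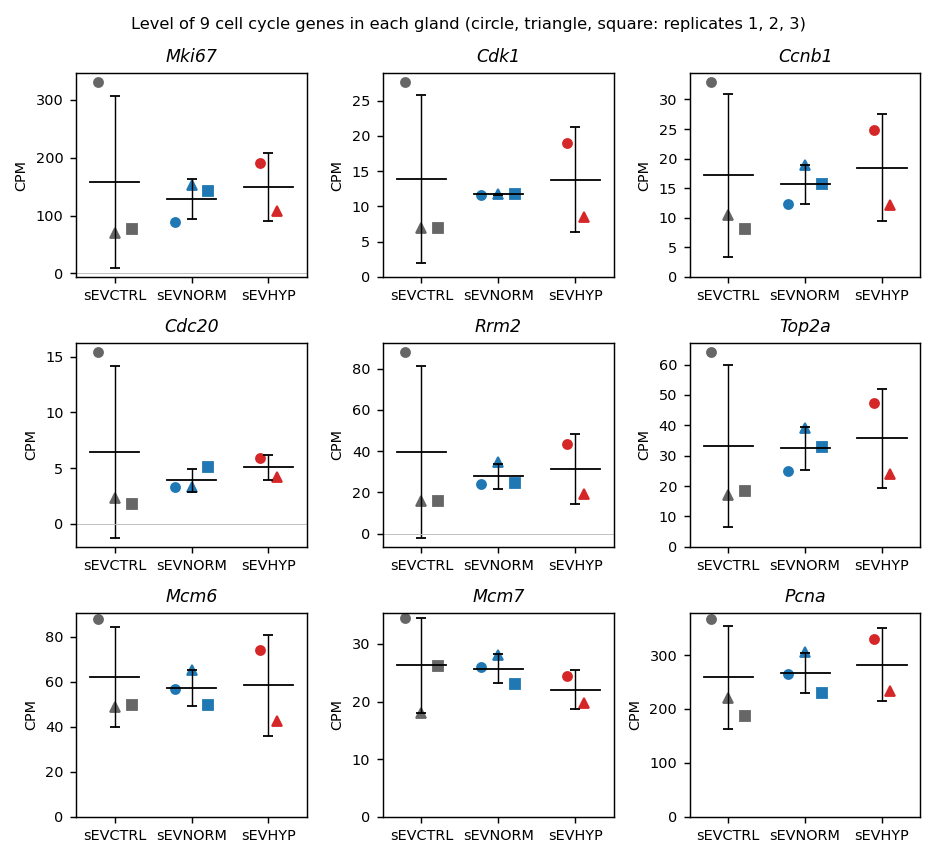
The level in CPM (linear axis) of 9 genes in each gland, with symbols for replicates 1 to 3, the group mean as a line and the SD as a bar, which for Cdc20 and Rrm2 of sEVCTRL reaches below 0. In 8 of the 9 genes sEVCTRL replicate 1 lies far above the other 2 controls, with the treated glands mostly in between, and in Mcm7 sEVCTRL replicate 3 lies among the treated glands.

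Among the kinases and cyclins, Cdk1, the kinase that drives entry into mitosis, was at 27.6, 6.98 and 7.004 CPM in the controls. It was at 11.6, 11.8 and 11.8 CPM in the sEVNORM glands, which agreed within 1.01-fold, and at 19.1 and 8.51 CPM in the sEVHYP glands. Ccnb1, encoding its partner cyclin B1, was at 33.0, 10.4 and 8.10 CPM in sEVCTRL, 12.4, 19.0 and 15.7 in sEVNORM, and 24.9 and 12.1 in sEVHYP. Both genes had the order of Mki67, with 1 control on top and 2 at the bottom. Ccna2 (cyclin A2) ranged from 14.6 to 54.7 CPM, Ccnb2 (cyclin B2) from 7.89 to 29.0 and Aurka, a kinase of the spindle poles, from 1.70 to 8.79. Plk1, the Polo-like kinase of centrosomes and kinetochores, had few counts, with 71, 13 and 11 counts in the controls, 38, 36 and 29 in sEVNORM and 41 and 28 in sEVHYP. Aurkb, the kinase of the chromosomal passenger complex, ranged from 4.34 CPM in sEVHYP replicate 2 to 12.6 in sEVCTRL replicate 1. Ccnb1 and Ccnb2 each have a named pseudogene in the annotation, so reads of these pairs may be shared.

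The checkpoint and anaphase genes held the member with the widest span. Cdc20, the activator of the anaphase-promoting complex, was at 15.4, 2.28 and 1.75 CPM in the controls, an 8.79-fold span. In the sEVNORM glands it was at 3.30, 3.28 and 5.06 CPM and in the sEVHYP glands at 5.86 and 4.23. Every treated gland thus lay above sEVCTRL replicates 2 and 3 and below replicate 1. Ube2c, the ubiquitin-conjugating enzyme of the same complex, was at 55.7, 13.0 and 20.4 CPM in sEVCTRL, 23.7, 25.5 and 20.9 in sEVNORM and 40.5 and 20.9 in sEVHYP. Ube2c shares 592 bases with the muscle gene Tnnc2 on the opposite strand, and Tnnc2 was at 17.98, 231.8, 44.0, 82.8, 0.133, 37.0, 123.2 and 278.9 CPM in the same order of libraries. The highest Ube2c level was in a library with 17.98 CPM of Tnnc2, and the next highest in a library with 123.2 CPM. Whether reads of Tnnc2 entered the Ube2c counts was not tested. The spindle checkpoint genes Bub1 (4.93 to 18.8 CPM) and Bub1b (4.82 to 15.2 CPM) were also highest in sEVCTRL replicate 1.

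Of the centromere and kinetochore genes, Cenpf, a large kinetochore protein, had the smallest P of any member in 2 comparisons. It was at 9.70, 3.06 and 4.27 CPM in sEVCTRL, 4.06, 7.14 and 3.83 in sEVNORM and 10.2 and 5.73 in sEVHYP. The lower sEVHYP gland lay below sEVNORM replicate 2, so the groups overlapped here too. Cenpe, the kinetochore motor, ranged from 5.09 to 21.5 CPM, Birc5 (survivin, of the chromosomal passenger complex) from 3.42 to 16.7, and Cenpa, the centromeric histone, from 14.3 to 32.2. Among the spindle genes, Tpx2, an activator of Aurora A, had the widest span (7.44 to 32.6 CPM) and Kif23, a motor of cytokinesis, the narrowest (11.8 to 23.6 CPM). Kif11, the motor that pushes the poles apart, ranged from 11.4 to 32.9 CPM, Nusap1 from 14.0 to 42.6, Kif20a from 3.97 to 14.2 and Prc1, which bundles midzone microtubules, from 6.57 to 21.2. Kif20a shares 1271 bases with Cdc23 and Prc1 911 bases with Rccd1 on the opposite strand.

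Top2a, the topoisomerase that untangles sister chromatids, was at 64.1, 17.1 and 18.5 CPM in sEVCTRL, 24.98, 39.1 and 33.0 in sEVNORM and 47.3 and 24.1 in sEVHYP. Foxm1 was at 12.3, 2.96 and 4.82 CPM in sEVCTRL, 4.79, 5.94 and 4.12 in sEVNORM and 7.51 and 3.91 in sEVHYP. Neither gene separated the groups.

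The S phase genes included the member with the second widest SD, Rrm2 (0.995), and Tk1 (0.793), which also lay above the median of 0.722 of the mitosis genes. Rrm2, the regulated subunit of ribonucleotide reductase, was at 87.8, 15.7 and 15.6 CPM in the controls, 24.0, 34.6 and 24.7 in sEVNORM and 43.2 and 19.3 in sEVHYP, a 5.63-fold span that falls among those of the mitosis genes. Pcna was at 367.6, 220.9 and 187.8 CPM in sEVCTRL, 265.2, 305.2 and 230.4 in sEVNORM and 330.3 and 233.9 in sEVHYP. Mcm7, with the smallest within-group SD of all members, was at 34.5, 18.1 and 26.3 CPM in sEVCTRL, 26.1, 28.0 and 23.0 in sEVNORM and 24.5 and 19.7 in sEVHYP. The MCM genes encode the subunits of the replicative helicase, and Mcm2, Mcm3, Mcm4 and Mcm7 were the only members for which sEVNORM replicate 2, not sEVHYP replicate 1, came second after sEVCTRL replicate 1. Mcm6 ranged from 42.5 to 88.0 CPM, Mcm4 from 40.3 to 68.9, Mcm3 from 16.5 to 43.1, Mcm2 from 10.9 to 24.9 and Mcm5 from 5.70 to 18.9. Of the genes of thymidylate supply, Tyms was at 20.01, 10.8 and 9.36 CPM in sEVCTRL, 11.8, 12.8 and 12.6 in sEVNORM and 22.5 and 10.9 in sEVHYP, and Tk1 ranged from 1.92 to 6.32 CPM. The cyclins E, Ccne1 (2.03 to 5.49 CPM) and Ccne2 (3.78 to 10.4 CPM), were low. Pcna and Tyms have named pseudogenes, and Mcm7 hosts microRNAs and overlaps Cops6 and Ap4m1 on the opposite strand.

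The question asked of these libraries is whether the sEVs changed the RNA of proliferation genes in the whole gland. The paper reports more Ki67 staining of mammary ducts after sEVHYP at every time point, and more proliferation of isolated luminal cells. The staining counts protein in ducts, and the proliferation was that of sorted cells in culture. RNA of a mixed tissue measures neither of these. With all 8 libraries, none of the 36 genes was called in any comparison at the threshold of the study, an unadjusted P under 0.05, and DESeq2 also called 0 of them. The 3 comparisons share groups and are not independent.

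For sEVHYP against sEVNORM, 0 of 36 members had an unadjusted P under 0.05 by edgeR (3.95% of all genes tested), and 0 an adjusted P under 0.05 (0% of all genes). The fitted change was higher in sEVHYP for 30 members, with a median log2 fold change of 0.21, against -0.02 over all genes. With the replicate number as a block, 11 members were fitted higher and the median was -0.15. The 3 members nearest to the threshold were Cenpf at 0.67 (SE 0.51), Tyms at 0.42 (SE 0.37) and Ccna2 at 0.55 (SE 0.51), each with an adjusted P of 0.9998. In no member did both sEVHYP glands lie above all sEVNORM glands (12.3% of all genes) or below them (10.5%). The 95% intervals had a median half-width of 1.14 on the log2 scale, or 2.21-fold either way, so that a 2-fold higher level of a typical member lay within them.

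For sEVHYP against sEVCTRL, 0 of 36 members were called (2.45% of all genes tested), 0 after adjustment (0% of all genes), and the median log2 fold change was 0.06, with 22 members fitted higher. Nearest to the threshold were Cenpf (log2 fold change 0.49, SE 0.51), Mcm7 (-0.25, SE 0.26) and Prc1 (0.44, SE 0.49), each with an adjusted P of 0.9999 by edgeR. No member lay above (6.70% of all genes) or below (6.08%) every control in both sEVHYP glands. The median half-width of the intervals was 1.15.

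For sEVNORM against sEVCTRL, 0 of 36 members were called (1.62% of all genes tested), 0 after adjustment (0% of all genes), and the median log2 fold change was -0.07, with 10 members fitted higher (26 with a replicate block, where the median was 0.10). Nearest to it were Cdc20 at -0.74 (SE 0.72), Ccne1 at -0.41 (SE 0.46) and Foxm1 at -0.44 (SE 0.49), each with an adjusted P of 0.9998 by edgeR. None of the members separated the groups upward (2.69% of all genes) or downward (2.17%). The median half-width of the intervals was 1.03.

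**Figure D3:**
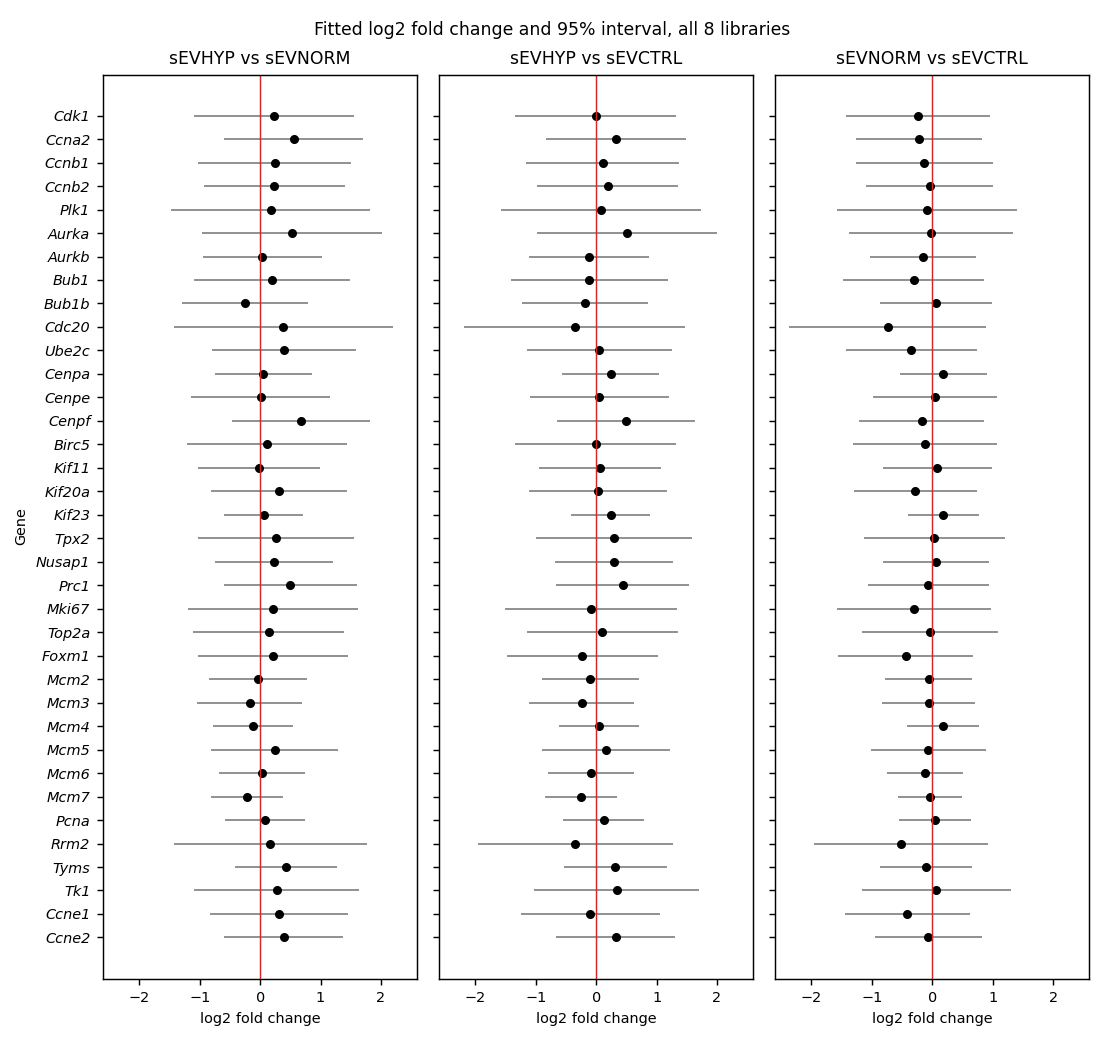
Fitted log2 fold change (points) and 95% interval (lines) of the 36 genes in the 3 comparisons of the model of all 8 libraries, where values above 0 are higher in the group named first. Every interval spans 0, and the points of sEVHYP vs sEVNORM lie mostly to the right of 0 (30 of 36, but 11 of 36 with a replicate block).

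The comparisons with the controls turned on sEVCTRL replicate 1. Without that library, edgeR called 20 of 36 members for sEVHYP against sEVCTRL, all higher in sEVHYP, where 2.39% of all genes tested passed, and the median log2 fold change was 0.82 in place of 0.06. For sEVNORM against sEVCTRL it called 13 of 36, all higher in sEVNORM, where 3.20% of all genes passed, with a median of 0.58 in place of -0.07. sEVCTRL replicate 1 was the highest of the 8 libraries for 32 of the 36 genes, so an upward shift without it follows from the choice. The members also rose and fell together from gland to gland, so the calls of single members are not separate results. The comparisons share the remaining 2 controls, so their calls are not independent of each other. None passed the adjustment over all genes, with an adjusted P of 0.9995 for each of the 20 and 0.9817 for each of the 13. Mki67 was fitted at 1.02 (SE 0.33) for sEVHYP and 0.79 (SE 0.30) for sEVNORM, past the unadjusted threshold in both, after -0.09 and -0.31 with all libraries. Leaving out any other library gave 0 calls among the members in each of the 3 comparisons, and without sEVCTRL replicate 1 the comparison of sEVHYP with sEVNORM also gave 0.

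The genes called without sEVCTRL replicate 1 were mostly those of mitosis. With that library, the controls spanned 3.50-fold in the mitosis sum and 2.02-fold in the S phase sum. More calls among the mitosis genes therefore follow from leaving it out, and are not a separate result. For sEVHYP against sEVCTRL, 18 of 24 mitosis members were called and 2 of 12 S phase members, Mcm5 and Rrm2, against 2.39% of all genes tested. The 18 were Aurka (log2 fold change 1.56), Plk1 (1.49), Cdc20 (1.31), Tpx2 (1.19), Ccna2 (1.16), Cenpf, Prc1, Mki67, Ccnb2, Top2a, Ccnb1, Cdk1, Birc5, Nusap1, Ube2c, Kif11, Cenpa and Kif23 (0.60). Cenpe (0.80), Kif20a (0.71), Bub1 (0.70), Foxm1 (0.55), Bub1b (0.35) and Aurkb (0.30) missed the threshold. For sEVNORM against sEVCTRL, 12 of 24 mitosis members were called, namely Birc5, Ccnb2, Cdc20, Cenpa, Cenpe, Kif11, Kif23, Mki67, Nusap1, Plk1, Top2a and Tpx2, and 1 of 12 S phase members, Rrm2, against 3.20% of all genes. The MCM genes had a median log2 fold change of 0.27 for sEVHYP and 0.34 for sEVNORM in this setting.

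**Figure D4:**
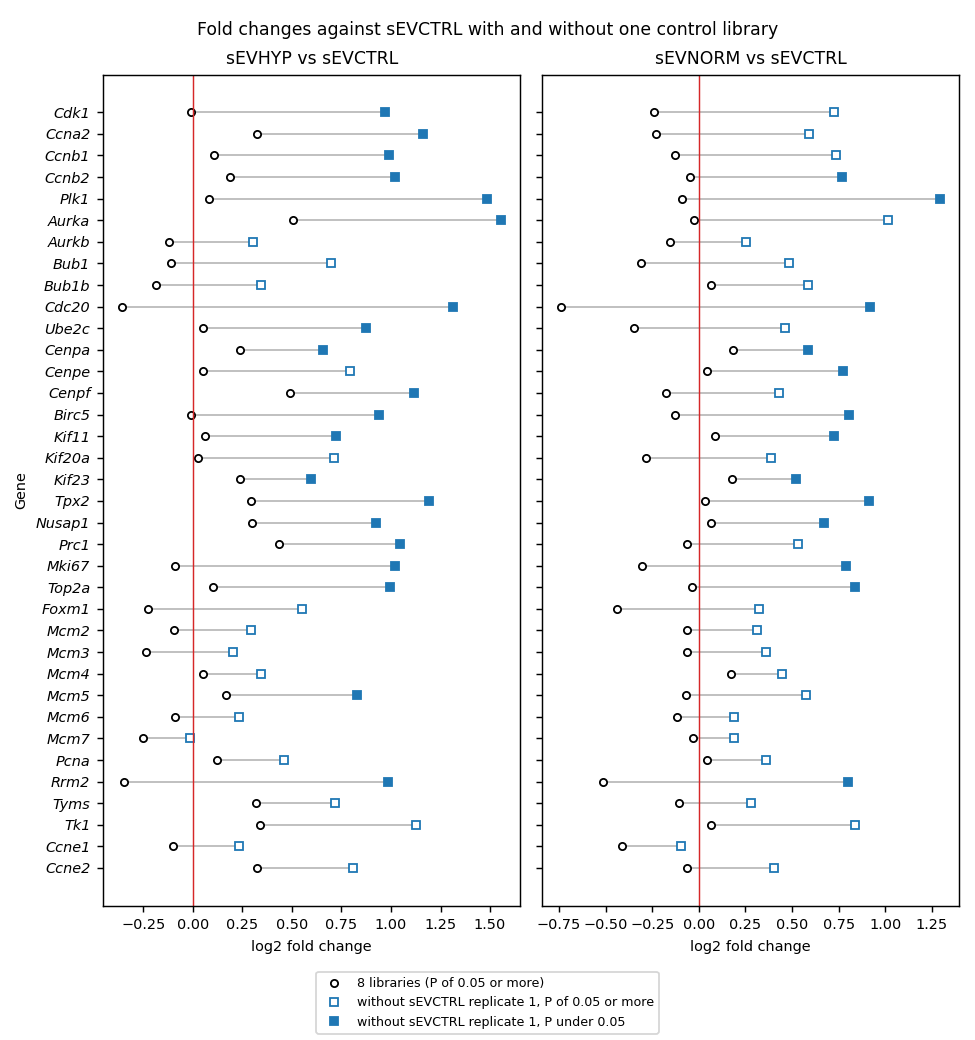
Log2 fold change of each gene against sEVCTRL with all 8 libraries (open circles) and without sEVCTRL replicate 1 (squares, filled where the unadjusted P was under 0.05), for sEVHYP and sEVNORM. Each square lies to the right of its circle, with 20 filled squares for sEVHYP and 13 for sEVNORM. The control left out was the highest library for most of these genes, so a shift to the right follows from the choice.

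The sEVHYP pair also differed. sEVHYP replicate 1 exceeded replicate 2 in all 36 genes, from 1.18-fold for Kif23 to 2.88-fold for Tk1, and by 1.68-fold in the sum. Without sEVHYP replicate 1 the median log2 fold change was -0.35 against sEVNORM and -0.43 against sEVCTRL, with 4 and 2 members fitted higher. Without sEVHYP replicate 2 the medians were 0.57 and 0.40, with 35 and 34 members fitted higher. The lone sEVHYP library was then assumed to vary like the other groups, and 0 members were called in either case. The fitted direction of the module in sEVHYP thus followed whichever sEVHYP gland was kept.

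Other genes of the same pathway, a list of 93, gave a like picture. For sEVHYP against sEVNORM, 1 of 93 was called (3.95% of all genes tested), against sEVCTRL 0 for sEVHYP (2.45%) and 0 for sEVNORM (1.62%) by edgeR's unadjusted P. The called gene was Cdkn2b, which encodes the CDK4 and CDK6 inhibitor p15, at 4.67, 4.20 and 4.38 CPM in sEVCTRL, 3.82, 4.03 and 3.60 in sEVNORM and 6.18 and 5.62 in sEVHYP. Both sEVHYP glands were above every sEVNORM gland (12.3% of all genes tested) and above every sEVCTRL gland (6.7%). The share of all genes that met both conditions at once is not given here. The log2 fold change of Cdkn2b was 0.63 (SE 0.23, adjusted P = 0.9998 by edgeR) against sEVNORM and 0.42 (SE 0.23, adjusted P = 0.9999) against sEVCTRL. The call against sEVNORM was lost without sEVNORM replicate 1 (0.63), sEVNORM replicate 3 (0.59), sEVHYP replicate 1 (0.56) or sEVHYP replicate 2 (0.69), with no filter on low counts (0.63) and with a replicate block (0.60). Of the 26 other S phase genes 23 were highest in sEVCTRL replicate 1, and of the 40 other G2 and mitosis genes 28 were. So were 9 of 20 G1/S regulators (45.0%) and 0 of 7 CDK inhibitors, against 13.7% of all genes tested. In that library 1 of the 20 G1/S regulators was lowest, cyclin D1 (Ccnd1, 39.6 CPM), which was highest in sEVHYP replicate 1 (63.7 CPM). Of the 7 CDK inhibitors 1 was lowest in sEVCTRL replicate 1, Cdkn1a (25.5 CPM, against 27.8 to 59.1 in the other libraries). Without sEVCTRL replicate 1, 16 of the 93 were called for sEVHYP and 11 for sEVNORM against sEVCTRL, all higher than in the controls, where 2.39% and 3.20% of all genes passed. The control left out was the highest library for 60 of the 93, so a shift upward follows from the choice here too.

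Markers of B cells and plasma cells were high in the control with the most cell cycle RNA, but the other glands followed the module only in part. The 8 B cell markers summed to 985.5 to 2230 CPM in sEVCTRL, 1024 to 2493 in sEVNORM and 706.1 to 1545 in sEVHYP, with none at 0. They were high in sEVCTRL replicate 1 (2230 CPM) and highest in sEVNORM replicate 2 (2493 CPM), while the cell cycle genes there summed to 1098 CPM. The 7 plasma cell markers summed to 622.3 to 2040 CPM in sEVCTRL, 693.3 to 1165 in sEVNORM and 716.4 to 900.3 in sEVHYP, none at 0, and peaked in sEVCTRL replicate 1, where Jchain, the joining chain of secreted antibodies, was at 1224 CPM and at 175.9 to 607.1 CPM elsewhere. The 8 T cell markers summed to 328.1 to 627.2 CPM, 477.8 to 636.1 and 325.9 to 561.9 in the same order of groups, none at 0. sEVHYP replicate 1, second in the cell cycle sum, exceeded sEVHYP replicate 2 in B cell markers (1545 against 706.1 CPM) and T cell markers (561.9 against 325.9 CPM). It lay below replicate 2 in plasma cell markers (716.4 against 900.3 CPM). sEVCTRL replicate 3, lowest in the cell cycle sum, held T cell markers at 604.7 CPM, near the 627.2 CPM of sEVCTRL replicate 1.

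Markers of luminal epithelium did not follow the cell cycle genes. The 10 luminal markers summed to 948.6 to 1889 CPM in sEVCTRL, 1445 to 1716 in sEVNORM and 1520 to 2108 in sEVHYP, none at 0, and were lowest in sEVCTRL replicate 1. The 6 genes of the hormone response list summed to 86.7 to 215.8 CPM in sEVCTRL, 84.7 to 215.7 in sEVNORM and 199.2 to 299.0 in sEVHYP, none at 0. The 6 adipocyte markers summed to 4873 to 7865 CPM, 4313 to 6799 and 4264 to 7274, none at 0. The 8 skeletal muscle markers summed to 566.1 to 7143 CPM, 7.403 to 2447 and 3793 to 10950. The part of these cells in the level of the cell cycle genes was not tested.

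**Figure D5:**
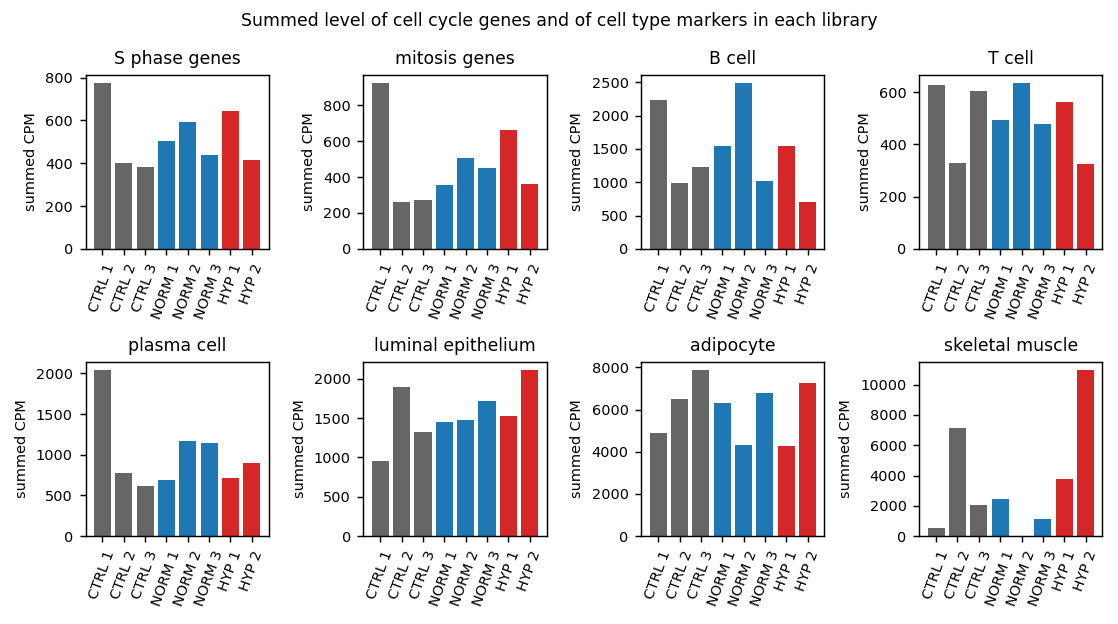
Summed CPM (linear axes from 0) of the S phase and mitosis genes and of 6 cell type marker lists in each of the 8 libraries, coloured by group. The first bar, sEVCTRL replicate 1, is the tallest for the S phase, mitosis and plasma cell lists and the shortest for luminal epithelium, and the skeletal muscle bars range from 7.403 to 10950 CPM.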

How the data were processed

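RNA of 8 whole mammary glands was analysed, each library from one column of the deposited table and each group from the sample labels. Sequencing of sorted luminal cells was not used here. The authors extracted polyA RNA, built libraries with a Lexogen SENSE kit, used STAR for alignment to mm10 and RSEM 1.2.12 for counts per Ensembl gene (submitters' processing notes and the paper). The deposited values are whole-number counts with no normalization, and neither the rounding of the RSEM estimates nor the strand setting is given in the sources used here. Names, positions and exon lengths came from GENCODE M21 (GRCm38), and 0.0389% of counts fell in genes without a symbol.

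Counts were tested in R 4.3.3 with edgeR 4.0.16 in one model of the 3 groups (filterByExpr at min.count 10, TMM between 0.975 and 1.02, two-sided quasi-likelihood F-test, 5 residual and 4.08 prior degrees of freedom). The test covered 17858 genes, with Benjamini-Hochberg adjustment over all of them. A gene is called at an unadjusted P under 0.05, the threshold of the study. For single genes the text prints the SE or interval and the adjusted P. The paper describes the replicates of this experiment as animals, and the P values measure the spread between the libraries. The common biological coefficient of variation was 0.297. No pair of libraries was a duplicate. Every member was to be named, with full statistics for called members, for Mki67 and for the 3 with the smallest P in each comparison, and of the wider list up to 3 called genes in each direction. The members and lists were chosen with earlier results of these data known.

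Alternatives were DESeq2 1.42.0, its size factors, fits of only the groups compared, other filters on low counts, the replicate number as a block, and each library left out in turn. The procedure was tested on simulated data. Marker lists without values in the text are not reported here. The spread without sEVCTRL replicate 1 was added after the data were seen. Motif letters were read from RefSeq promoter windows (GRCm38.p6). Of the 31 windows of members, 28 ended in bases of a transcript of the same gene and strand.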

Additional observations from a re-analysis of the deposited data

How the results depend on the processing

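The count of called members was 0 under DESeq2, its size factors, other filters, fits of only the groups compared and the replicate block, and the direction of the median log2 fold change was kept under each of these, except that the block turned it for sEVHYP against sEVNORM and for sEVNORM against sEVCTRL. With each library left out in turn, called members ranged from 0 to 20 for sEVHYP against sEVCTRL and from 0 to 13 for sEVNORM against sEVCTRL, and stayed at 0 for sEVHYP against sEVNORM. The medians ranged from -0.43 to 0.82, from -0.33 to 0.58 and from -0.35 to 0.57 in that order, and both counts above 0 came without sEVCTRL replicate 1.

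In the wider list, called genes for sEVHYP against sEVNORM numbered 2 of 93 with DESeq2 or edgeR on only the groups compared (4.54% and 6.07% of all genes in those fits), 0 with the replicate block (4.31%) and 0 to 2 with a library left out. For sEVHYP against sEVCTRL they ranged from 0 to 16 and for sEVNORM against sEVCTRL from 0 to 11 with a library left out. Mki67 changed sign for sEVHYP against sEVNORM with the replicate block (-0.15) and with a library left out (range -0.25 to 0.56), for sEVHYP against sEVCTRL (range -0.56 to 1.02, above 0 without sEVCTRL replicate 1 or sEVHYP replicate 2, where it was 0.26), and for sEVNORM against sEVCTRL with the block (0.10) or a library left out (range -0.66 to 0.79, above 0 without sEVCTRL replicate 1). Beyond the libraries left out, the cause was not tested.

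Replicate numbers are shared by the groups, and the deviations of same-numbered libraries had correlations of -0.416 to 0.369. The deviations were centred within groups of 2 or 3 libraries, which ties the values to each other. These correlations therefore cannot show whether same-numbered libraries share more than a number. The replicate block gave 0 called members in each comparison, and medians of -0.15, 0.01 and 0.10 for sEVHYP against sEVNORM, sEVHYP against sEVCTRL and sEVNORM against sEVCTRL, with 19, 3 and 16 of 36 members changing sign. With 2 or 3 glands a group, the 95% intervals of the members had median half-widths of 1.03 to 1.15 on the log2 scale, and all members had counts in every library.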
